A study of Mus musculus with 10 samples.

Results

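The Pdcd1 locus was examined as 20 of the 94823 regions in a table of open chromatin. The assay was ATAC-seq, which reads where a transposase could cut into DNA and so marks accessible sites. Pdcd1 encodes PD-1 and lies on the minus strand of mouse chromosome 1 (mm10, chr1:94038305-94052553). A region was taken if it overlapped the gene body or lay within 50 kb of the gene start, and each is called here by its distance from that start and its side of it. The cells were invariant natural killer T (iNKT) cells sorted from the thymus of 8- to 10-week-old mice, as iNKT1 (CD27+ CD122+) or iNKT2 (CD27+ CD122-). They came from BALB/c mice or from SKG mice, which are on the same BALB/c background and carry a hypomorphic Zap70 mutation in all their cells, so that the T cell receptor (TCR) signals weakly from the start of T cell development. Each genotype had 2 libraries of iNKT1 and 3 of iNKT2, which gives 4 groups and 10 libraries. Whether libraries of a group came from separate mice or pools is not given in the sources used here, so p-values measure the spread between these libraries, which may be technical.

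PD-1 is an inhibitory receptor of T cells. When it binds its ligands PD-L1 (Cd274) or PD-L2 (Pdcd1lg2), tyrosine motifs in its tail recruit the phosphatase SHP-2 (Ptpn11), which dampens signalling from the TCR and from CD28. Its gene is switched on by TCR signals themselves: in activated CD8 T cells NFATc1 binds a conserved region a short way upstream of the start, and further regulatory elements lie in the flanks of the gene. Accessibility reports on such elements and not on the amount of RNA or protein.

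Insertions inside the regions of the table totalled 14988590 to 36342635 per library. In iNKT1 both SKG libraries held fewer (17214764 and 17454220) than both BALB/c libraries (36342635 and 24735873). Levels are given as CPM, insertions scaled to library size with TMM factors of 0.893 to 1.19. The first library of BALB/c iNKT2 and the first of SKG iNKT2 stood apart from the others of their groups, with a chi-square per region of 8.49 to 12.2 against them, while the other pairs within a group gave 2.53 to 3.32. Of the markers of the sort, Il2rb, which encodes CD122, held 106 CPM near its start in both iNKT1 groups and 34.3 and 37.6 CPM in the BALB/c and SKG iNKT2 groups. There were 2 iNKT17 markers that were not at 0 in the iNKT2 sort: regions near the start of Il23r held 6.05 and 5.08 CPM in BALB/c and SKG iNKT2 against 0.163 and 0.417 CPM in iNKT1, and those of Ccr6 held 0.937 and 2.72 against 0.0818 and 0.128. Their part in the iNKT2 values was not tested. Rag1, Rag2, Cd8b1, Cd79a, Csf1r and Lyz2, markers of immature thymocytes, B cells and myeloid cells, had no region within 1 kb of their starts. A fall in bulk accessibility cannot tell fewer cells with an open site from less opening per cell.

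The sequences of 4 stretches are shown, the one before the gene start for its position and the others for their change between the genotypes. They are the 250 bases before the Pdcd1 start, and the central 300 bases of regions that fell at least 4-fold in SKG iNKT1 (1.2 kb upstream and 4.4 kb intronic) or in SKG iNKT2 (3.6 kb and 1.2 kb upstream), those with the smallest adjusted p among such regions in each subset. All are read 5′ to 3′ on the strand of the gene from the RefSeq reference genome GRCm38.p6 of C57BL/6J, with matches to GGAAAA (NFAT), GCGTGGG (Egr) or TGANTCA (AP-1) on either strand in capitals. The positions are chr1:94052554-94052803, chr1:94053636-94053935, chr1:94055978-94056277 and chr1:94048032-94048331.
250 bases before the start: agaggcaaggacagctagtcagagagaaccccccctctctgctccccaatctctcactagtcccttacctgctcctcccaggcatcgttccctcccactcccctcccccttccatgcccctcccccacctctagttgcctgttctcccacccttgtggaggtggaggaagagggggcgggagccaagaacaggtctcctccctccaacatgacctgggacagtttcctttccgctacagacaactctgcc
1.2 kb upstream: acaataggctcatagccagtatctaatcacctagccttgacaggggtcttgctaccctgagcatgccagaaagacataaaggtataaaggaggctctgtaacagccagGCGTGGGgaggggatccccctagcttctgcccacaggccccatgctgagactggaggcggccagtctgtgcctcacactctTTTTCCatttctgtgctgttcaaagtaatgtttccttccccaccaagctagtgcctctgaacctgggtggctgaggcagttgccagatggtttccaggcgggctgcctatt
3.6 kb upstream: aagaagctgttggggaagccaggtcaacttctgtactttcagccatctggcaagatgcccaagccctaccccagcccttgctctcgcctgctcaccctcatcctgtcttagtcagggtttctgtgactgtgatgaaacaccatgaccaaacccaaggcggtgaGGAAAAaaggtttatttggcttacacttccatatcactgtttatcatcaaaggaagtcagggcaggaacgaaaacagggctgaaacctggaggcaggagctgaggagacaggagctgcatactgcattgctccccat
4.4 kb intronic: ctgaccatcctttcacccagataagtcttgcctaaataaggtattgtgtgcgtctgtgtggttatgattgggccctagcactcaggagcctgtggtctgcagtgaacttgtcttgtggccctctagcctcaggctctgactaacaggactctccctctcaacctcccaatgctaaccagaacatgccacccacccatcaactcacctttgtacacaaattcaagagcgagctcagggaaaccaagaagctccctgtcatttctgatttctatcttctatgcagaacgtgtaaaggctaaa

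Strings were counted in the central 300 bases of each region of the table, so those farther out in wider regions were not seen. The region 1.2 kb upstream held an Egr string and an NFAT string. It was the only one of the 20 regions with the Egr string, which 3.68% of all regions held. NFAT strings were in 7 of the 20 regions, against 21.9% of all regions: those 1.2, 3.6 and 26.7 kb upstream, the intronic one at 1.0 kb, and those 16.2, 17.1 and 40.7 kb downstream. The stretch before the start held none of the 3 strings. The AP-1 string was in 1 region, the intronic one at 1.3 kb, against 10.6% of all regions. Runx strings (TGTGGT) were in 10 of the 20, against 30.3%. The region 22.3 kb upstream held 3, and the intronic region at 4.4 kb and the region 40.7 kb downstream held 2 each. ETS (GGAAGT) was in 5 against 28.4%, Tcf (CTTTGA) in 6 against 21.5% and T-box (GGTGTGA) in 1, the intronic region at 9.9 kb, against 5.48%. Strings of such length match by their letters alone and do not show that a factor binds. The median GC content of the 20 central windows was 48.2%, against 49% for all regions.

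The 20 regions formed 5 position classes. One covered the gene start (promoter region, chr1:94052175-94052754), 7 lay in the gene body, 3 within 10 kb upstream, 4 farther upstream and 5 downstream of the gene end. Of the 7 in the gene body, 6 were in introns and 1, 11.9 kb from the start, overlapped exon 3. This last one (chr1:94040431-94040793) is called exonic here, but it only reaches into exon 3 (chr1:94040710-94040871). Most of it lies in the intron between exons 3 and 4. No other gene lay on the upstream side within 50 kb. On the downstream side were Neu4 and Gal3st2c, and the regions at 16.2, 17.1, 20.4 and 40.7 kb were nearer to the start of Neu4 than to that of Pdcd1, the last of them inside an exon of Gal3st2c. The intronic regions at 1.0 and 1.3 kb almost touch, so their insertions may come from 1 accessible stretch.

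Per kilobase, which allows regions of unequal width to be compared, the most accessible stretches of the locus in BALB/c iNKT1 were far from the promoter. The region 39.4 kb upstream held 116 CPM per kb and that 17.1 kb downstream 107, against a median of 7.91 over all regions, placing them above 98.3% and 97.8% of all regions. The promoter region held 30.8 CPM per kb, less than the region 3.6 kb upstream (56.6), the region 26.7 kb upstream (47.8), the intronic region at 9.9 kb (46.8) and, by small margins, the intronic region at 4.4 kb (32.7) and the exonic one at 11.9 kb (31.4). In BALB/c iNKT2 the region 17.1 kb downstream (98.1) and that 39.4 kb upstream (80.2) again came first. There the regions 26.7 kb upstream (58.4) and 1.2 kb upstream (53.3) followed, and the promoter region held 36.1. At the low end, the regions 20.4 kb downstream and 25.9 kb upstream held 0.619 and 0.766 CPM per kb in BALB/c iNKT1.

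**Figure D1:**
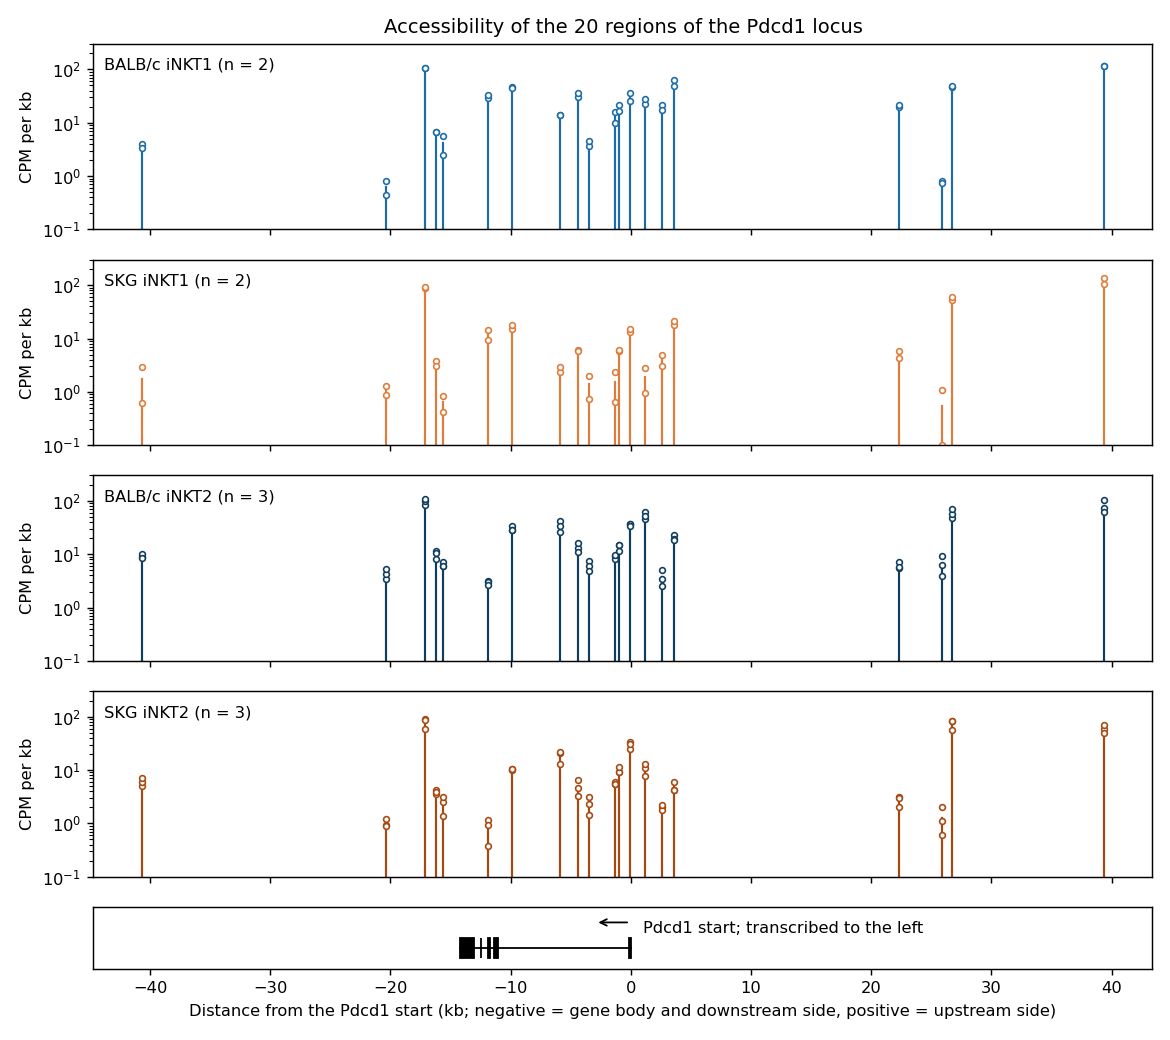
Accessibility of each region in CPM per kb (log axis) against its distance from the Pdcd1 start in kb, 1 panel per group, with lines at the group mean, open points for single libraries (a point on the floor of the axis is a library with 0 insertions) and the exons of Pdcd1 as black boxes below. The regions 17.1 kb downstream and 39.4 kb upstream stay near 100 CPM per kb in iNKT1 of both genotypes, while the gene body and the first 25 kb upstream sit lower in SKG.

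The first comparison set SKG against BALB/c iNKT1 cells at the locus. The region 1.2 kb upstream was nearly closed in SKG iNKT1: it held 7.80 and 9.52 CPM in the BALB/c libraries and 0.321 and 0.962 CPM in the SKG libraries. The change was -3.74 ± 0.374 on the log2 scale (SE), 13.4-fold lower (edgeR adjusted p 3.9e-05). The SKG values rest on 5 and 15 insertions, and the change was -4.73 (26.5-fold) without SKG iNKT1 replicate 2 and -3.16 without SKG iNKT1 replicate 1. It had the largest fall of the 20 regions. A region counts as called at an edgeR adjusted p under 0.01 over all regions and a change of at least 4-fold. These are the thresholds of the study's methods, which applied them with voom and limma and not with edgeR. At the locus 6 of 20 regions were called lower in SKG iNKT1, where 0.732% of all regions were, and 0 were called higher, where 0.281% of all regions were. Without the fold threshold, 11 of 20 were lower (1.42% of all regions) and again 0 higher, and no region with a rise had an unadjusted p under 0.05 (edgeR) or a call with DESeq2.

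In the gene body, 3 intronic regions were called. The one at 4.4 kb held 12.8 and 15.3 CPM in BALB/c iNKT1 and 2.57 and 2.50 CPM in SKG iNKT1, so that the 2 SKG libraries lay together far below the BALB/c ones. Its change was -2.46 ± 0.294 (SE, log2; edgeR adjusted p 1.8e-04). The region at 5.9 kb held 4.84 and 4.89 CPM in BALB/c and 0.835 and 1.03 CPM in SKG (-2.38 ± 0.353, edgeR adjusted p 9.5e-04). It was not called with voom and TMM factors (-2.35, limma adjusted p 2.5e-02) or under quantile normalization with voom (-1.9, limma adjusted p 7.6e-02). The region at 1.3 kb held 4.87 and 3.00 CPM in BALB/c and 0.707 and 0.192 CPM in SKG (-3.13 ± 0.438, edgeR adjusted p 6.1e-04). It rested on 11 and 3 insertions in the SKG libraries, and its change was -4.33 (20.1-fold) without SKG iNKT1 replicate 1 and -2.48 without SKG iNKT1 replicate 2 (edgeR adjusted p 1.6e-02). The remaining gene-body regions at 1.0, 9.9 and 11.9 kb fell by less than 4-fold at adjusted p under 0.01, of which the broad region at 9.9 kb fell from 47.2 and 45.2 CPM to 15.0 and 17.4 CPM, by 1.51 on the log2 scale (SE 0.155, edgeR adjusted p 4.8e-05). The region at 3.5 kb changed by -1.56 ± 0.506 and did not pass (edgeR adjusted p 9.8e-02).

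Upstream, the region at 2.6 kb held 6.69 and 5.38 CPM in BALB/c iNKT1 and 1.54 and 0.962 CPM in SKG iNKT1 (-2.27 ± 0.360, edgeR adjusted p 1.5e-03). Its fall was under 4-fold under quantile normalization with voom (-1.91, limma adjusted p 8.5e-03) and without SKG iNKT1 replicate 2 (-1.97). The region at 22.3 kb held 13.8 and 14.5 CPM in BALB/c and 3.98 and 2.95 CPM in SKG (-2.03 ± 0.255, edgeR adjusted p 2.6e-04), just past the fold threshold. The region at 3.6 kb fell from 27.0 and 20.8 CPM to 7.71 and 9.17 CPM, by 1.50 on the log2 scale (SE 0.219, edgeR adjusted p 8.3e-04), and so passed the test without reaching 4-fold. In these regions the groups did not overlap. Over the locus, both SKG libraries lay below both BALB/c libraries in 16 of 20 regions, against 29.0% of all regions.

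The promoter region fell less than its surroundings. It held 20.8 and 14.9 CPM in BALB/c iNKT1 and 7.52 and 8.79 CPM in SKG iNKT1, a change of -1.13 ± 0.209 (SE, log2; 2.20-fold, edgeR adjusted p 4.6e-03, and 2.6e-02 under quantile normalization with voom). With edgeR its adjusted p rose to 1.0e-01 when BALB/c iNKT1 replicate 1 was left out, and to 8.8e-02 or 3.6e-02 when the first or the second SKG iNKT1 library was, and the exonic region at 11.9 kb likewise missed 0.01 without any 1 of the 4 iNKT1 libraries (3.0e-02 to 1.5e-01). Leaving out 1 library moved the count of 6 most without BALB/c iNKT1 replicate 1 (3 regions) and without SKG iNKT1 replicate 2 (2 regions), and quantile normalization with voom gave 2. The regions 1.2 kb upstream and 4.4 kb intronic kept their call in each of these fits. Over all 94823 regions, 129 were called lower under quantile normalization with voom, against 694 with edgeR.

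**Figure D2:**
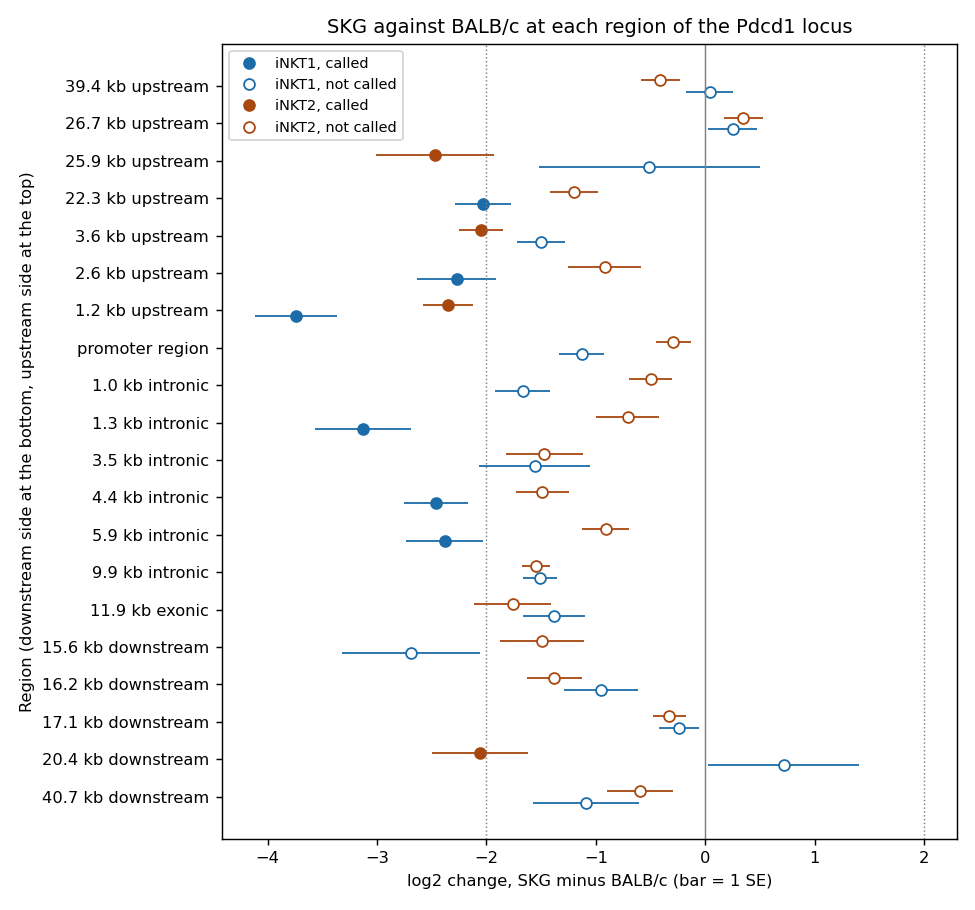
Log2 change of SKG minus BALB/c for each region (x axis), ordered along the locus (y axis), in iNKT1 (blue, BALB/c n = 2, SKG n = 2) and iNKT2 (brown, n = 3 each), with bars of 1 SE, filled points for called regions and dotted lines at 4-fold. Nearly all points lie left of 0, the region 1.2 kb upstream is the only one filled in both colours, and the regions 17.1 kb downstream and 26.7 and 39.4 kb upstream lie near 0.

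In iNKT2 cells the locus again lost accessibility in SKG mice. The region 1.2 kb upstream held 21.0, 15.8 and 17.5 CPM in the BALB/c libraries and 3.63, 2.66 and 4.45 CPM in the SKG libraries, 5.10-fold lower (-2.35 ± 0.232, SE, log2; edgeR adjusted p 4.6e-06). Of the 20 regions 4 were called lower in SKG iNKT2, where 4.73% of all regions were, and 0 were called higher, where 0.252% of all regions were (0 also at an unadjusted edgeR p under 0.05 and with DESeq2). Without the fold threshold 12 of 20 were lower, where 10.1% of all regions were. All 3 SKG libraries lay below all 3 BALB/c libraries in 17 of 20 regions, against 21.9% of all regions.

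The region 3.6 kb upstream held 9.79, 8.09 and 7.83 CPM in BALB/c iNKT2 and 2.47, 1.79 and 1.82 CPM in SKG iNKT2 (-2.05 ± 0.199, edgeR adjusted p 4.0e-06). Its adjusted p was the smallest among the called regions of the locus, and its change lay close to the 4-fold threshold. The other called regions had few insertions. That 20.4 kb downstream held 1.04, 1.27 and 1.61 CPM in BALB/c and 0.357, 0.276 and 0.270 CPM in SKG, the latter from 12, 6 and 4 insertions (-2.06 ± 0.436, edgeR adjusted p 2.8e-03). That 25.9 kb upstream held 1.19, 2.80 and 1.90 CPM in BALB/c and 0.327, 0.184 and 0.607 CPM in SKG, the latter from 11, 4 and 9 insertions (-2.47 ± 0.538, edgeR adjusted p 3.4e-03). Neither of these sparse regions was called in iNKT1, where no library of either genotype held more than 0.385 CPM there.

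The broad intronic region at 9.9 kb was the best covered of those that fell: 33.2, 28.6 and 28.0 CPM in BALB/c became 9.87, 10.3 and 10.5 CPM in SKG, a fall by 1.55 on the log2 scale (SE 0.128, edgeR adjusted p 1.0e-06). Without reaching 4-fold, the intronic regions at 3.5, 4.4 and 5.9 kb, the exonic one at 11.9 kb, the region 22.3 kb upstream and those 15.6 and 16.2 kb downstream also fell at adjusted p under 0.01, with log2 changes of -0.91 to -1.76. The promoter region held 21.5, 21.4 and 19.9 CPM in BALB/c and 14.2, 19.7 and 17.5 CPM in SKG, a change of -0.29 ± 0.161 that did not pass (edgeR adjusted p 2.0e-01). The count of 4 dropped to 1 when SKG iNKT2 replicate 2 was left out, and to 2 when either SKG iNKT2 replicate 3 or BALB/c iNKT2 replicate 3 was left out, and it was 5 without the first library of both groups, a fit added after the data were seen. The call 1.2 kb upstream held in each of these fits. Over all regions, 4488 were called lower with all libraries and 3535 without SKG iNKT2 replicate 2. They numbered 3912 without SKG iNKT2 replicate 3, 4220 without BALB/c iNKT2 replicate 3 and 5342 without the first library of both groups.

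**Figure D3:**
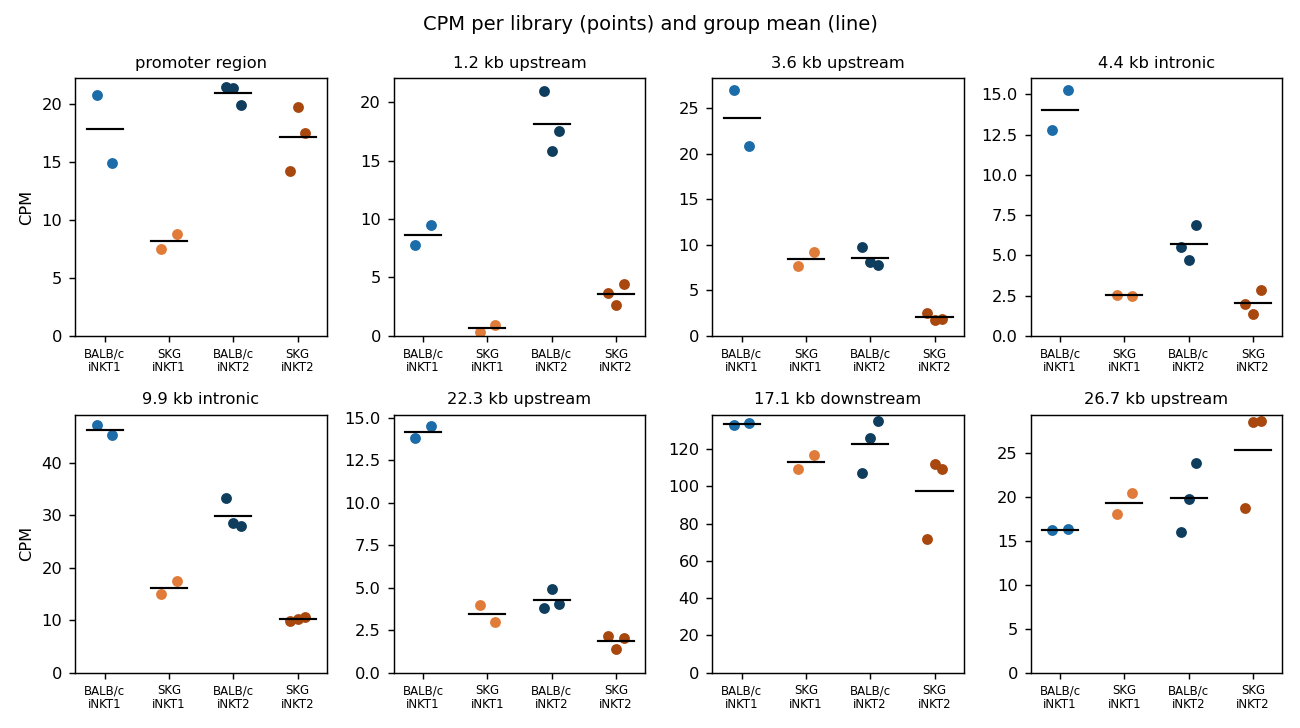
CPM of 8 regions (y axes from 0, scaled separately) in each of the 10 libraries, by group, with points for libraries and black lines for group means. In the regions 1.2, 3.6 and 22.3 kb upstream and the intronic ones at 4.4 and 9.9 kb the SKG points lie below the BALB/c points of the same subset, which is not so for the region 26.7 kb upstream.

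Both subsets together, 1 region was called lower in both (1.2 kb upstream) and 9 in at least 1 subset, where 0.308% and 5.16% of all regions were. Without the fold threshold 7 were lower in both subsets (0.847% of all regions), 4 in iNKT1 alone (0.571%), 5 in iNKT2 alone (9.30%) and 4 in neither (89.3%). Those 4 were the region 40.7 kb downstream, which held at most 3.07 CPM in any library, and 3 regions in the flanks of the locus. The region 17.1 kb downstream held 133 and 134 CPM in BALB/c iNKT1, 109 and 117 in SKG iNKT1, 107, 126 and 135 in BALB/c iNKT2 and 71.9, 112 and 109 in SKG iNKT2. Its changes were -0.24 ± 0.185 in iNKT1 and -0.33 ± 0.151 in iNKT2 (edgeR adjusted p 5.8e-01 and 1.2e-01). In iNKT2 it passed without the fold under library totals (-0.47, edgeR adjusted p 9.9e-03) and under quantile normalization (-0.64, limma adjusted p 4.7e-05).

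The region 26.7 kb upstream held 16.2 and 16.4 CPM in BALB/c iNKT1, 18.1 and 20.5 in SKG iNKT1, 16.0, 19.8 and 23.9 in BALB/c iNKT2 and 18.8, 28.6 and 28.7 in SKG iNKT2. Its changes, 0.25 ± 0.220 in iNKT1 and 0.35 ± 0.176 in iNKT2, did not pass (edgeR adjusted p 6.6e-01 and 1.6e-01). The region 39.4 kb upstream changed by 0.04 ± 0.216 and -0.41 ± 0.179 (edgeR adjusted p 9.6e-01 and 1.0e-01). A p that misses the threshold does not show that these regions were equal between the genotypes.

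Because the region 26.7 kb upstream was well covered in every library, with 282 to 749 insertions, others were set against it within each library, which needs no scaling. This reference was chosen after the values were seen. Per insertion there, the region 1.2 kb upstream had 0.480 and 0.582 insertions in BALB/c iNKT1 and 0.0177 and 0.0469 in SKG iNKT1. In iNKT2 it had 1.31, 0.797 and 0.732 in BALB/c and 0.192, 0.0932 and 0.155 in SKG. The promoter region had 1.28 and 0.908 in BALB/c iNKT1 and 0.415 and 0.428 in SKG iNKT1, and 1.34, 1.08 and 0.834 in BALB/c iNKT2 against 0.752, 0.690 and 0.608 in SKG iNKT2. The mean of the reference was itself higher in SKG in both subsets, by changes that did not pass, and this lowers each SKG ratio. Over the locus, the ratios of all SKG libraries lay below those of all BALB/c libraries in 17 of 19 regions in iNKT1 and 17 of 19 in iNKT2, against 48.3% and 27.4% of all regions. Such a gap is therefore common with this reference, and the region 17.1 kb downstream, whose ratios did not overlap in iNKT2, did overlap there in CPM.

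**Figure D4:**
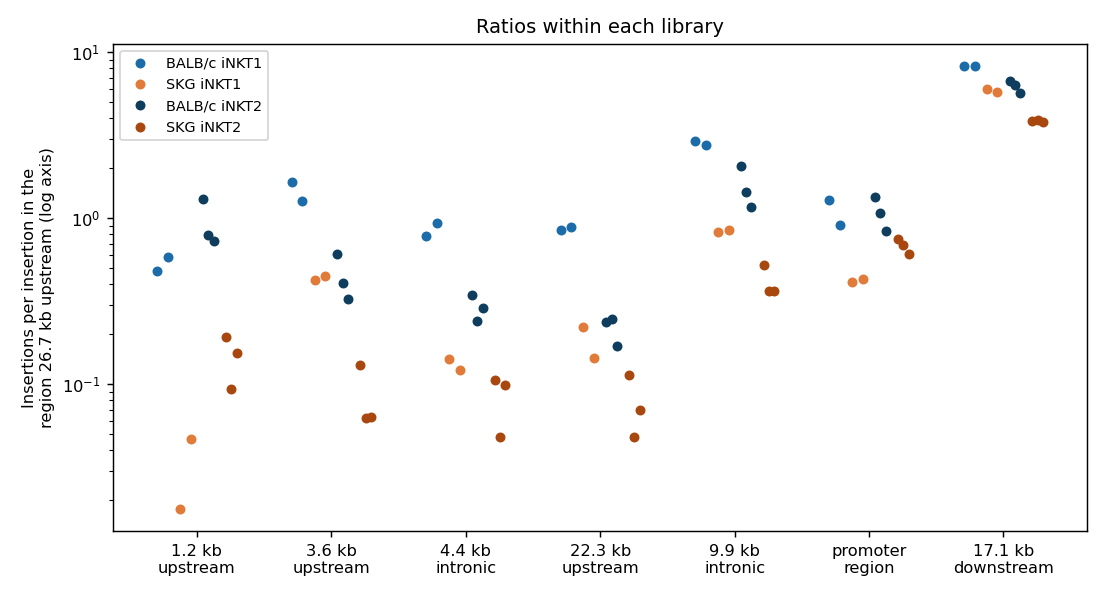
Insertions in 7 regions of the locus per insertion in the region 26.7 kb upstream (log axis), for each of the 10 libraries, coloured by group. The SKG points lie below the BALB/c points of the same subset in all 7 regions, farthest at the region 1.2 kb upstream (0.0177 and 0.0469 in SKG iNKT1 against 0.480 and 0.582 in BALB/c iNKT1). Over all regions, 48.3% in iNKT1 and 27.4% in iNKT2 had SKG ratios below all BALB/c ratios.

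The next comparison asked how the locus differs between the subsets. The clearest subset difference was at the region that reaches into exon 3 from the intron beyond it. The exonic region 11.9 kb from the start held 10.5 and 12.3 CPM in BALB/c iNKT1 and 1.13, 1.08 and 0.948 CPM in BALB/c iNKT2, 10.7-fold lower in iNKT2 (-3.42 ± 0.265, edgeR adjusted p 6.8e-08). In SKG mice it held 3.47 and 5.26 CPM in iNKT1 and 0.416, 0.138 and 0.337 CPM in iNKT2, 13.9-fold lower (-3.80 ± 0.346, edgeR adjusted p 3.9e-07). It was the only region of the locus called between the subsets in both genotypes. The intronic region at 5.9 kb and the region 1.2 kb upstream went the other way, with more accessibility in iNKT2. So did the region 40.7 kb downstream, inside Gal3st2c, without reaching 4-fold. Its changes were 1.27 ± 0.353 in BALB/c and 1.75 ± 0.449 in SKG (edgeR adjusted p 5.6e-03 and 4.4e-03).

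In BALB/c mice, 2 of 20 regions were called lower in iNKT2 (6.36% of all regions) and 2 higher (15.5%). The other region called lower was that 2.6 kb upstream (6.69 and 5.38 CPM in iNKT1; 1.60, 1.08 and 0.783 in iNKT2; -2.37 ± 0.295, edgeR adjusted p 6.1e-06). The regions called higher were the sparse ones 20.4 kb downstream (2.72 ± 0.526, edgeR adjusted p 3.5e-04) and 25.9 kb upstream (3.07 ± 0.644, edgeR adjusted p 6.9e-04). Both of these calls were absent under quantile normalization, with log2 changes of 1.30 and 1.86, and both regions were removed by the filter on low counts. That 25.9 kb upstream also lost its call without either BALB/c iNKT1 library (edgeR adjusted p 1.0e-02 and 1.4e-02). Without the fold threshold 6 were lower (23.4% of all regions) and 5 higher (25.7%), shares near those of all regions.

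In SKG mice, 2 of 20 were called lower in iNKT2 (6.96% of all regions) and 2 higher (10.2%). The higher ones were the region 1.2 kb upstream, from 0.321 and 0.962 CPM in iNKT1 to 3.63, 2.66 and 4.45 CPM in iNKT2 (2.46 ± 0.379, edgeR adjusted p 6.7e-05), and the intronic region at 5.9 kb, from 0.835 and 1.03 CPM to 4.55, 7.30 and 7.55 CPM (2.77 ± 0.336, edgeR adjusted p 6.4e-06). The first of these was under 4-fold without SKG iNKT1 replicate 1 (1.88, edgeR adjusted p 3.1e-03) and was 3.44 (10.9-fold) without SKG iNKT1 replicate 2. In BALB/c these 2 regions also stood higher in iNKT2, by 1.07 ± 0.245 and 1.30 ± 0.251 on the log2 scale, without reaching 4-fold (edgeR adjusted p 1.4e-03 and 3.4e-04). Besides the exonic region at 11.9 kb, the region 3.6 kb upstream was called lower, at -2.03 ± 0.221 (edgeR adjusted p 2.3e-06). It was no longer past 4-fold with the replicate number as a block (-2.00, edgeR adjusted p 8.8e-07), under library totals (-1.84), under quantile normalization (-1.89), or without SKG iNKT1 replicate 2 (-1.90), SKG iNKT2 replicate 2 (-1.93) or SKG iNKT2 replicate 3 (-1.97). Without the fold threshold 5 were lower (17.6% of all regions) and 5 higher (18.4%). The promoter region was higher in SKG iNKT2 than in SKG iNKT1 by 1.07 ± 0.197 (edgeR adjusted p 3.5e-04), while in BALB/c its subset difference was 0.23 ± 0.180 (edgeR adjusted p 2.9e-01).

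**Figure D5:**
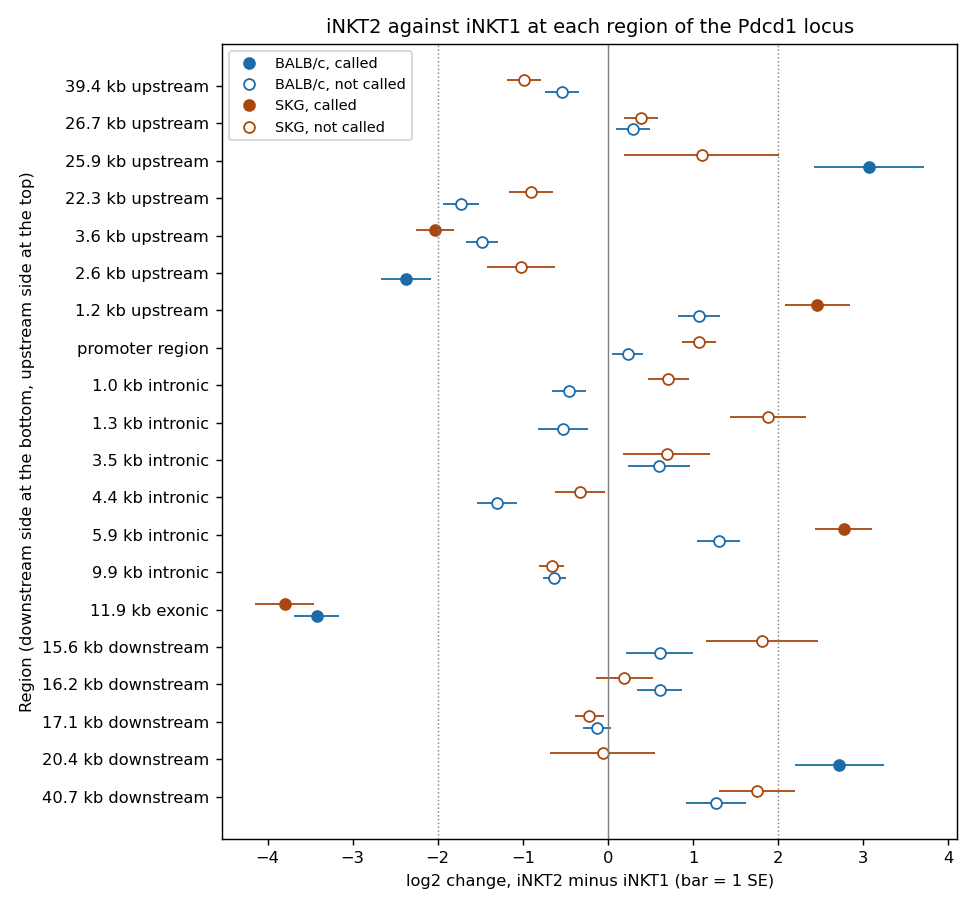
Log2 change of iNKT2 minus iNKT1 for each region (x axis), ordered along the locus (y axis), in BALB/c (blue, iNKT1 n = 2, iNKT2 n = 3) and SKG (brown, iNKT1 n = 2, iNKT2 n = 3), with bars of 1 SE, filled points for called regions and dotted lines at 4-fold. The exonic region at 11.9 kb lies far to the left in both genotypes (-3.42 and -3.80), and the regions 1.2 kb upstream and 5.9 kb intronic lie right of 0 in both.

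Whether the genotype change itself differed between iNKT1 and iNKT2 was tested as an interaction. With edgeR 0 of 20 regions were called, where 0.529% of all regions were. An unadjusted edgeR p under 0.05 was seen in 9, but the share of all regions at that p is not given here. DESeq2 called 1090 negative and 302 positive differences among all 94823 regions, and 1 region of the 20. That region was the intronic one at 1.3 kb, whose fall in SKG was smaller in iNKT2 (-0.71 ± 0.285) than in iNKT1 (-3.13 ± 0.438), a difference of 2.42 ± 0.535 (edgeR adjusted p 2.1e-02, DESeq2 adjusted p 6.1e-03). For the region 1.2 kb upstream the difference was 1.39 ± 0.460 (edgeR adjusted p 1.0e-01), and for the promoter region 0.84 ± 0.264 (8.6e-02). The larger promoter change in iNKT1 was therefore not shown to differ from that in iNKT2.

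Summed over the 20 regions, the locus held 361 and 350 CPM in BALB/c iNKT1, 287, 294 and 299 in BALB/c iNKT2, 211 and 240 in SKG iNKT1, and 162, 220 and 216 in SKG iNKT2. The order of the means was BALB/c iNKT1 (356 ± 8.18, SD), BALB/c iNKT2 (294 ± 5.75), SKG iNKT1 (226 ± 20.2) and SKG iNKT2 (199 ± 32.2). The SKG groups overlapped each other and lay below both BALB/c groups. The order of the BALB/c groups depended on the scaling: with library totals they held 333 and 321 CPM in iNKT1 and 342, 324 and 317 CPM in iNKT2, which overlap. SKG means were 63.5% of the BALB/c mean in iNKT1 and 67.8% in iNKT2. The region 17.1 kb downstream alone made up 37.7% of the insertions of the locus in BALB/c iNKT1 and 50.3% in SKG iNKT1, and 41.7% and 48.7% in iNKT2. The region 1.2 kb upstream made up 2.44% and 0.277% in BALB/c and SKG iNKT1, and 6.18% and 1.84% in iNKT2.

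Among 8196 protein-coding genes with at least 10 regions by the same distance rule, 4 had a larger share of regions called lower in SKG iNKT1 than the 30% of Pdcd1, and 7568 had none called lower. In SKG iNKT2, 201 genes had a larger share than the 20% of Pdcd1, and 6468 had none. The counts of regions near a gene overlap between neighbouring genes, so these ranks are a description only. Of 13755 protein-coding genes with at least 5 regions and more than 1 Mb away, the 5 whose summed level followed that of Pdcd1 most closely over the 10 libraries (Pearson's r of log2 CPM) were Ikzf2 (0.961, 35 regions), which encodes the transcription factor Helios, Mtmr7 (0.959, 6 regions), Frmd4a (0.955, 16 regions), Vwf (0.939, 13 regions), the gene of von Willebrand factor, and Lyn (0.936, 6 regions), a Src-family kinase. The summed mean of Ikzf2 was 352 CPM in BALB/c iNKT1, 249 in SKG iNKT1, 325 in BALB/c iNKT2 and 220 in SKG iNKT2. In all, 16 genes reached 0.9 or more, and the libraries share the same 4 groups, so r reflects the group means.

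Elsewhere in the PD-1 pathway few regions were called. A list of 24 genes, the ligands, the phosphatases, the receptor targets and factors known to act on the gene, had 617 regions by the same rule. Called lower in SKG were 4 of them (0.648%) in iNKT1 and 16 (2.59%) in iNKT2, against 0.732% and 4.73% of all regions. By edgeR 0 were called higher in either, against 0.281% and 0.252% of all regions. At an unadjusted edgeR p under 0.05, 40 of them in iNKT1 and 133 in iNKT2 were higher. The share of all regions at that p is not given here, so these counts are not read as a rise. The median log2 change over the 617 regions was -0.098 in iNKT1 and 0.12 in iNKT2, against -0.027 and 0.013 for all regions. The calls in iNKT1 were at Tox (3 of 44 regions) and at Prdm1, which encodes the repressor Blimp-1 (1 of 19). In iNKT2 they were at Tox (5), Cd247 (4 of 55), Nfatc1 (3 of 57), Ptpn11, Ptpn6, Prdm1 and Rbpj (1 each).

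The ligand genes Cd274 and Pdcd1lg2, neighbours that share 10 of their 17 and 22 regions, had 0 called regions in either genotype comparison with edgeR. At an unadjusted p under 0.05, Cd274 had 1 in iNKT1 and 5 in iNKT2, and Pdcd1lg2 had 3 and 7. These counts likewise lack a share of all regions at that p. In iNKT2 the region of Cd274 with the smallest adjusted p, 30098 bp from its start, held 3.27 ± 0.741 CPM in BALB/c and 0.779 ± 0.485 in SKG and fell by 1.97 on the log2 scale (SE 0.362, edgeR adjusted p 1.0e-03), just short of 4-fold. That of Pdcd1lg2, 7156 bp from its start, rose from 3.2 ± 0.709 to 7.65 ± 0.863 CPM (1.24 ± 0.203, edgeR adjusted p 4.0e-04). Regions near the start of Cd274 held 61.7 ± 1.60 CPM (SD) in BALB/c iNKT1, 66.7 ± 6.33 in SKG iNKT1, 46.9 ± 2.80 in BALB/c iNKT2 and 60.6 ± 8.36 in SKG iNKT2, and Pdcd1lg2 had no region within 1 kb of its start. Near the start of Nfatc1, the NFAT family member that binds Pdcd1 in activated T cells, regions held 43.0 ± 0.816, 29.7 ± 0.757, 24.2 ± 5.36 and 21.0 ± 4.78 CPM in the same order of groups. Tox, a nuclear factor that is induced by persistent TCR signals, had the smallest adjusted p in both subsets among Cd274, Pdcd1lg2, Nfatc1 and Tox. Its change was not the largest in iNKT1, where a region of Nfatc1 changed by -2.14 ± 0.459 without passing (edgeR adjusted p 1.2e-02). The region 110440 bp from the start of Tox, chr4:6880918-6881315, held 6.24 ± 1.40 CPM in BALB/c iNKT1 and 1.51 ± 0.138 in SKG iNKT1 (-2.05 ± 0.269, SE, edgeR adjusted p 3.6e-04). It held 11.6 ± 1.60 in BALB/c iNKT2 against 2.95 ± 0.155 in SKG iNKT2 (-1.97 ± 0.193, edgeR adjusted p 4.4e-06), just short of 4-fold and so not called there. Regions near the start of Tox held 53.6 ± 5.36, 62.8 ± 3.61, 62.7 ± 6.85 and 90.2 ± 18.0 CPM in the same order of groups.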

How the data were processed

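The authors mapped paired ATAC-seq reads to mm10 with Bowtie 1.0, trimmed unmapped pairs with Trim Galore and mapped them again, removed mitochondrial reads and duplicates (Picard), called summits per replicate with MACS2 from short fragments, merged them over all replicates and counted transposase insertions per region. The deposited table held counts, whole numbers whose totals differ between libraries, although its title speaks of normalized values. The totals are insertions inside regions and not the full sequencing depth, which the table does not give. Starts counted from 0 were written from 1. Genes came from GENCODE M21 and sequences from the RefSeq genome GRCm38.p6.

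Counts were fitted with edgeR 4.0.16, run in R 4.3.3 (with TMM factors, 1 mean per group, 10 libraries together, quasi-likelihood F tests, Benjamini-Hochberg adjustment over 94823 regions). The SE is the log2 change divided by the root of F. No region was filtered out. The fit was tried on simulated data with known changes put into SKG iNKT2 alone, outside the sparsest regions, and scored at 2-fold. That trial does not check falls in iNKT1, sparse regions or the 4-fold threshold. Groups came from the library titles. The members, gene lists and tests were chosen with earlier results of these data known. Some markers and motifs of the lists used are not reported here. Named regions were all members, with library values for the promoter and for called ones. Alternatives were limma 3.58.1 with voom, with and without quantile normalization, DESeq2 1.42.0, library totals, a filter on the lowest 25% of regions by mean count, the 2 groups alone, other thresholds, a window of 25 kb, a replicate block and omission of each library. Where a group of 2 lost a library, the spread of the lone one was taken from the rest of the fit.

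Libraries of BALB/c and SKG iNKT2 with the same number deviated together (r over regions 0.446, 0.136 and 0.156), so an alternative fit took the number as a block. The block covered all 10 libraries and so also tied the iNKT1 libraries, and the subsets to each other, by number. Unlike numbers gave r of -0.329 to 0.207, so only the first pair stood out. In the other groupings r was at most 0.0943.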

Additional observations from a re-analysis of the deposited data

Results flagged for a closer look

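The change from BALB/c to SKG at the intronic region 1.3 kb from the Pdcd1 start differed between the subsets by 2.42 on the log2 scale (iNKT2 minus iNKT1, SE 0.535). It was flagged because the test of the interaction gave an edgeR adjusted p of 2.1e-02 over all regions. The region held 4.87 and 3.00 CPM in BALB/c iNKT1 and 0.707 and 0.192 CPM in SKG iNKT1, against 2.82, 2.49 and 2.93 CPM in BALB/c iNKT2 and 1.60, 1.79 and 1.62 CPM in SKG iNKT2. The lowest value rests on 3 insertions. Without SKG iNKT1 replicate 2, which holds it, the difference was 1.77 (edgeR adjusted p 1.3e-01), and without BALB/c iNKT1 replicate 1 it was 1.96 (edgeR adjusted p 1.2e-01). Without the first library of both iNKT2 groups it was 2.44 (edgeR adjusted p 2.2e-03). The threshold of 0.05 for this section was chosen after the values were seen. Dixon's test for single outlying values was not applied to groups of 2 or 3 libraries.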

How the results depend on the processing

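No log2 change past the threshold on p turned its direction in any fit: of 556 refits of 44 region changes 0 reversed. These changes were picked for passing that threshold in the same libraries, so a reversal was unlikely from the start. The 18 called changes lost the call in 40 of 222 refits, in 24 of them on p and in 16 on the fold alone. The 26 changes under 4-fold gained a call in 5 of 334 refits and missed the threshold on p in 75. The cause of each change was not tested. Regions lower in SKG iNKT1 numbered 6 with edgeR, 2 under quantile normalization, 12 at adjusted p under 0.05 and 2-fold, 11 without the fold, and 2 to 5 with 1 library left out. Regions lower in SKG iNKT2 numbered 4, then 2, 11 and 12 at the same settings, 2 without the lowest 25% of regions and 1 to 5 with 1 library left out. Regions higher in BALB/c iNKT2 than iNKT1 numbered 2, with 0 under quantile normalization and without the lowest 25% (which removes both regions), 5 at both other thresholds, 1 in the 25 kb window and 1 to 2 with a library left out, and those lower numbered 2, with 5 at the looser thresholds and 6 without the fold. In SKG, regions higher in iNKT2 numbered 2, with 6 at the looser thresholds and 5 without the fold, and those lower numbered 2, with 5 without the fold, 3 at the looser thresholds and 1 under library totals, under quantile normalization, without the lowest 25% and with the replicate block, and 1 to 2 with a library left out. The interaction had 0 calls, 1 with DESeq2, 1 at the looser thresholds, 1 without the first library of both iNKT2 groups (added after seeing the data) and 0 with any 1 library left out. The replicate block changed no other count. With at most 12 insertions per SKG library, the regions 20.4 kb downstream and 25.9 kb upstream are limited by depth. The counts over the whole table moved with the setting as well. Of all 94823 regions, 694 were lower in SKG iNKT1 with edgeR and 129 under quantile normalization with voom. In SKG iNKT2 they numbered 4488 and 3469, and 2023 of 71183 without the lowest 25% of regions. Those higher in BALB/c iNKT2 than iNKT1 numbered 14725 and 9042. Counts of all regions at the looser thresholds are not given here.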
